A study of Mus musculus with 288 samples.

Results

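Immediate early genes are switched on within minutes of a stimulus, from transcription factors that are already present in the cell, and need no new protein to be made. Here 10 of them were followed through single cells that had been digested out of the mouse upper small intestine: Fos, Fosb, Jun, Junb, Egr1, Atf3, Nr4a1, Nr4a2, Dusp1 and Ier2. They were taken by name, all 10 were found among the 46078 mouse genes of the table, and they were examined in the 250 of 288 cells that had at least 20000 reads on mouse genes and no more than 20% of these on mitochondrial genes. The other 38 cells had too few reads (22 cells) or too many mitochondrial reads (16 cells).

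The cells came from 3 male GLU-Venus mice aged 20 to 21 weeks, which carry a yellow fluorescent protein under the control of the proglucagon promoter and mark preproglucagon-expressing (PPG) cells. Tissue of the upper small intestine was digested with 1 mg/ml collagenase, single cells were sorted into plates by flow cytometry and their RNA was read by Smart-seq2, a full-length cDNA protocol that keeps no strand and adds no molecular identifiers. All cells are labelled L-cells and belong to 3 pools of 96 cells. These are SLX-11175 and SLX-11179, read at low depth, and SLX-9703, read at high depth, and values for the pools are always given in this order. The labels give neither the mouse nor the fluorescence of a cell, so each pool was taken as 1 replicate. The p-values set a difference between classes against how much such differences varied from pool to pool. By the study's account some of the cells read at low depth were non-fluorescent controls, and these could not be separated here. Every cell had been dissociated, so a response to dissociation and transcription that was under way in the tissue cannot be told apart.

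Cells that passed numbered 75, 87 and 88 in the 3 pools, with a median of 52571, 70726 and 1975700 reads on genes, so that pool SLX-9703 was by far the deepest. Of 13 endocrine markers, Chgb, a granin of secretory granules, was the most widely read, in 82.7%, 88.5% and 100% of the cells, and the transcription factor gene Nkx2-2 the least, in 22.7%, 26.4% and 86.4%. By its transcripts not every cell was the L-cell of its label, and 53 cells fell in the Gcg-high class (Gcg, proglucagon, at 10000 CPM or more, where CPM are the reads of a gene relative to all reads on mouse genes in the cell). A further 25 cells were Gip-high (Gip, the hormone of K-cells, at 10000 CPM or more) and 64 were Pzp-positive (Pzp, which encodes a protease inhibitor, at 100 CPM or more). The remaining 103 cells lay under all 3 limits, and 5 cells that passed several limits entered no class. By pool, the Gcg-high class held 16, 18 and 19 cells, the Gip-high class 10, 5 and 10, the Pzp-positive class 14, 22 and 28, and the class under all limits 32, 41 and 30.

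The 10 genes have different roles. Fos, Fosb, Jun and Junb encode subunits of AP-1, a dimeric transcription factor, and Atf3 encodes a related leucine zipper protein that is induced by stress. Egr1 encodes a zinc finger factor, and Nr4a1 and Nr4a2 encode orphan nuclear receptors. Dusp1 encodes a phosphatase that switches off mitogen-activated protein (MAP) kinases and so limits the signal that induces it, while Ier2 encodes a nuclear protein of the early response. In many cell types calcium and cyclic AMP raise such genes through CREB, which binds the cyclic AMP response element (CRE), and MAP kinases raise them through serum response factor. Enteroendocrine cells use calcium and cyclic AMP to release their hormones. Enzymatic digestion at warm temperatures is known to induce the same genes in many tissues.

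To show which of these elements lie close to the start of the genes, the 250 bases before the start site are printed for Fos, Jun, Nr4a1, Nr4a2 and Dusp1, the members whose relations to one another and to the hormones are described most closely here. The sequences are those of RefSeq on build GRCm38.p6, with windows taken for 8 of the 10 members and 1 start per gene. For Nr4a1, Dusp1, Atf3 and, by a few bases, Fosb that start lies inside the span that GENCODE gives the gene. The window then precedes 1 of several annotated starts. They run 5′ to 3′ along the strand of the gene, with Fos at chr12:85473640-85473889 (+ strand), Jun at chr4:95052223-95052472 (- strand), Nr4a1 at chr15:101266596-101266845 (+ strand), Nr4a2 at chr2:57124004-57124253 (- strand) and Dusp1 at chr17:26508473-26508722 (- strand). Capitals mark the CRE half-site TGACG on either strand, the 2 overlapping half-sites that form the full CRE TGACGTCA, and, in Jun, the related element TGACATCA.
Fos: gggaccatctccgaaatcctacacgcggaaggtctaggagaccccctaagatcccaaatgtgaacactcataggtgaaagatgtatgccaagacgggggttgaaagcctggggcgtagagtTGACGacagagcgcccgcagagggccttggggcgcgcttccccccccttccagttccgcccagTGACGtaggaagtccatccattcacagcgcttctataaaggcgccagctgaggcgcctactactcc
Jun: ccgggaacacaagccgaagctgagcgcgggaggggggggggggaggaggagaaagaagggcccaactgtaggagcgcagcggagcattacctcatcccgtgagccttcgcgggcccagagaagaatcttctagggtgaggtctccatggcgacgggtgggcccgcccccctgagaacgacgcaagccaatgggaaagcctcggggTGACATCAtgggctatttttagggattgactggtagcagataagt
Nr4a1: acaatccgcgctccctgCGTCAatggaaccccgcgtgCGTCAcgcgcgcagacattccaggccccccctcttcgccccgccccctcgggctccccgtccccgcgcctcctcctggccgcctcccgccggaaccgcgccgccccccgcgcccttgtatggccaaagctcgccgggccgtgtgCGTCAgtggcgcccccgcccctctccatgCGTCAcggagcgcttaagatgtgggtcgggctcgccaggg
Nr4a2: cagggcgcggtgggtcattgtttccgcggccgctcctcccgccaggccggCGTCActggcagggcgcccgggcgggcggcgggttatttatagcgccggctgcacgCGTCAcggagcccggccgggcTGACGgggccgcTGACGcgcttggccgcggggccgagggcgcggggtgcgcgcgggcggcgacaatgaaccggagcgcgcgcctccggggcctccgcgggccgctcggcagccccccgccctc
Dusp1: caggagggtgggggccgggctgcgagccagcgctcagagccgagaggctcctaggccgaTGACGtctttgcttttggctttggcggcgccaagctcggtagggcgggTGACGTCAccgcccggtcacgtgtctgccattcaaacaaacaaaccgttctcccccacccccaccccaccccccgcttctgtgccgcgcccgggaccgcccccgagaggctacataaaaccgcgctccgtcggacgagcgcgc

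Both nuclear receptor genes carried 4 CRE half-sites in this window, at -233, -213, -69 and -40 in Nr4a1 and at -200, -144, -123 and -111 in Nr4a2 (first base, counted back from -1 at the base before the start). Windows with at least 4 half-sites made up 0.137% of 32817 promoters of the same length, and windows with at least 1 made up 17.7%. Dusp1 held 3 half-sites, of which 2 overlapped in a full CRE from -143 to -136, and a full CRE was found in 1.55% of the promoters. Fos held 2 half-sites, at -129 and -66. Jun held no half-site, and its TGACATCA lay from -45 to -38, an element found in 2.93% of the promoters. Fosb, Junb and Atf3 held 1 half-site each. The AP-1 site TGANTCA, present in 6.75% of promoters, and the serum response element, present in 1.47%, were not found in the windows of the 8 members. No window of Egr1 or Ier2 was examined, so whether these elements lie near their starts was not tested. A match of letters is a description of the sequence and not evidence that a factor binds there.

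Fos was the most abundant member and was found throughout the cells, whereas Nr4a1 and Atf3 had the largest shares of their CPM in few cells. In the deep pool Fos had a read in all 88 cells (exact 95% interval 95.9 to 100%), and its CPM ranged from 1.43 to 7322 with a median of 737. In both shallow pools the Fos median was 139 and 233 CPM, the highest cells reached 5440 and 5493 CPM, and 72% and 73.6% of cells had a read. The range within a pool was therefore wider than the distance between pool medians. When every cell was thinned to 20000 reads, Fos was read in 66.7%, 71.3% and 85.2% of the cells, so that the gap between pools was narrower at equal depth but did not close. Intervals and limits of this kind cover counting error only.

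Egr1 was also found in all 88 cells of the deep pool, with a median of 188 CPM and a range from 1.45 to 1902 CPM. Jun (median 231 CPM), Junb (187 CPM) and Ier2 (275 CPM) were read in 98.9%, 96.6% and 97.7% of its cells. These 4 genes together with Fos form the broadly expressed part of the set. In pool SLX-11175 their medians were 11.6 CPM for Egr1, 49.2 CPM for Jun, 31.2 CPM for Junb and 49.8 CPM for Ier2, and in pool SLX-11179 they were 57.4, 113, 30.2 and 110 CPM.

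Fosb, Nr4a2 and Dusp1 were intermediate, with medians of 45.9, 36.7 and 20.5 CPM in the deep pool and 0 in both shallow pools. They were read in 86.4%, 79.5% and 83% of the cells of the deep pool, but in 32%, 48% and 34.7% of the SLX-11175 cells and 40.2%, 47.1% and 44.8% of the SLX-11179 cells. Their highest cells reached 782 CPM for Fosb (pool SLX-9703), 989 CPM for Nr4a2 (pool SLX-11179) and 2354 CPM for Dusp1 (pool SLX-11179). The third quartiles of Fosb, Nr4a2 and Dusp1 in the deep pool were 124, 193 and 153 CPM, so most deeply read cells lay far under the highest ones.

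Atf3 and Nr4a1 were the most unevenly spread. Atf3 was read in 22.7%, 27.6% and 63.6% of the cells of the 3 pools, yet it exceeded 1000 CPM in 8, 5 and 1 cells and peaked at 2838 CPM. The 8, 9 and 9 cells with the most Atf3 in each pool held 86.1%, 87.2% and 83.6% of the summed Atf3 CPM. Nr4a1 was read in 14.7%, 13.8% and 45.5% of the cells, and the same numbers of cells with the most Nr4a1 held 98.0%, 98.1% and 86.8% of its CPM. For Fos those shares were 52.7%, 45.2% and 37.8%, and for Nr4a2 54.6%, 54.8% and 43.6%. Dusp1 (73.8%, 70.6% and 66.3%) and Fosb (71.8%, 62.4% and 52.2%) also had most of their CPM in these numbers of cells. After thinning, Atf3 was read in 21.3%, 23% and 20.5% of the cells and Nr4a1 in 12%, 6.90% and 17%.

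**Figure D1:**
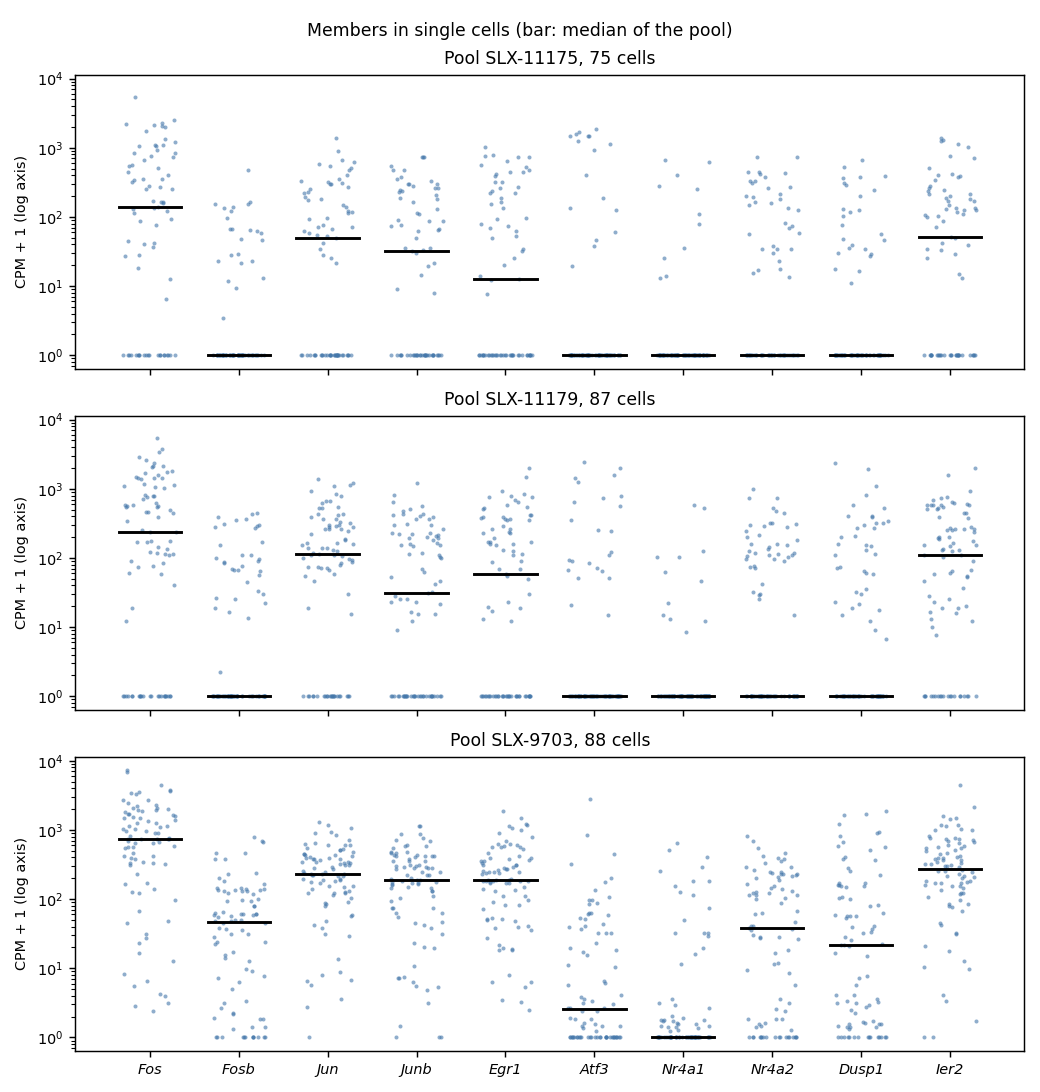
Each point is 1 cell and the bars are pool medians; the vertical axis is CPM + 1 on a log scale, with the 10 members along the horizontal axis and 1 panel per pool. Fos lies highest in each pool (medians 139, 233 and 737 CPM), and Atf3 and Nr4a1 reach high values in few cells.

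Levels of different genes can be compared only per length, and for this the mean CPM of a pool was divided by the merged exon length. On that scale Fos ranged from 219 to 499 CPM per kb over the 3 pools and Ier2 from 123 to 293. Junb (52.9 to 112), Jun (46.2 to 94.8), Egr1 (33 to 69.9), Atf3 (32.5 to 86) and Dusp1 (17.3 to 53.9 CPM per kb) followed, and these 5 ranges overlapped one another. Nr4a2 (23.6 to 28.2 CPM per kb) lay above Fosb (4.25 to 14.9) and Nr4a1 (5.27 to 10.3) in every pool. Exon lengths ran from 1522 bases for Ier2, which like Jun is a single-exon gene, to 6243 bases for Fosb. Exons of Jun, Junb and Dusp1 overlap exons of other genes on the opposite strand (232 bases with Junos, 173 with Prdx2 and 11 with Ergic1), from which reads without strand cannot be told apart.

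Positions on GRCm38 are those of GENCODE M21. Fos (ENSMUSG00000021250) lies at chr12:85473890-85477273, Jun (ENSMUSG00000052684) at chr4:95049034-95052222, Nr4a2 (ENSMUSG00000026826) at chr2:57106830-57124003, Nr4a1 (ENSMUSG00000023034) at chr15:101254269-101274795 and Dusp1 (ENSMUSG00000024190) at chr17:26505590-26562128. Junb and Ier2 both lie on chromosome 8, at chr8:84974484-84978718 and chr8:84661331-84662852. All 10 are protein-coding genes.

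Cells of 1 pool differed in how many of the members they contained. Over all reads a cell had a median of 4, 5 and 9 of the 10 members in the 3 pools, and the range was 0 to 10 in the shallow pools and 5 to 10 in the deep pool. No member was read in 5, 6 and 0 cells. With cells thinned to 20000 reads the medians were 3, 5 and 6 members, and 12, 13 and 18 cells still had 8 or more. The summed CPM of the members ran from 0 to 10260, from 0 to 14220 and from 18.2 to 17770 in the 3 pools, with medians of 587, 1057 and 2065. Cells with little and cells with much of the members were thus found in each pool.

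Most members were positively correlated with one another over cells, least so Nr4a2 and, in pools SLX-11179 and SLX-9703, Nr4a1. The 45 pairwise Spearman correlations had a median of 0.579, 0.458 and 0.364 in the 3 pools, and of 0.488, 0.423 and 0.266 after thinning. Correlations of the members with all other genes that had a read in at least 50% of the cells (1301, 1868 and 7960 genes) had medians of 0.148, 0.117 and 0.0637 and 95th percentiles of 0.414, 0.389 and 0.260. Without Nr4a2, all 36 remaining pairs were above 0 in every pool, with a median of 0.602, 0.547 and 0.438 and a lowest value of 0.340, 0.240 and 0.0276. These are descriptions over 75, 87 and 88 cells that share library depth and composition, and cells are not independent samples.

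Fos and Ier2 were among the closest pairs, with rho of 0.748, 0.744 and 0.682. Fos, Ier2, Jun, Junb and Egr1 had median correlations with the other 9 members between 0.492 and 0.665 in each pool. Dusp1 (0.604, 0.522 and 0.360) and Fosb (0.577, 0.539 and 0.444) lay within this range in both shallow pools. Atf3 (0.595, 0.367 and 0.364) did so in pool SLX-11175 alone. Nr4a1 (0.428, 0.284 and 0.174), the most rarely read member, lay below this range in each pool. In pools SLX-11179 and SLX-9703 its median was under the 95th percentile of single correlations with other genes, as was that of Atf3 in pool SLX-11179. Nr4a2 stood apart at 0.184, -0.0237 and -0.0643, although it was read in more cells than Nr4a1. Its relation to Nr4a1, the other nuclear receptor of the set, was 0.0739 in pool SLX-11175, -0.0740 in pool SLX-11179 and -0.150 in pool SLX-9703.

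**Figure D2:**
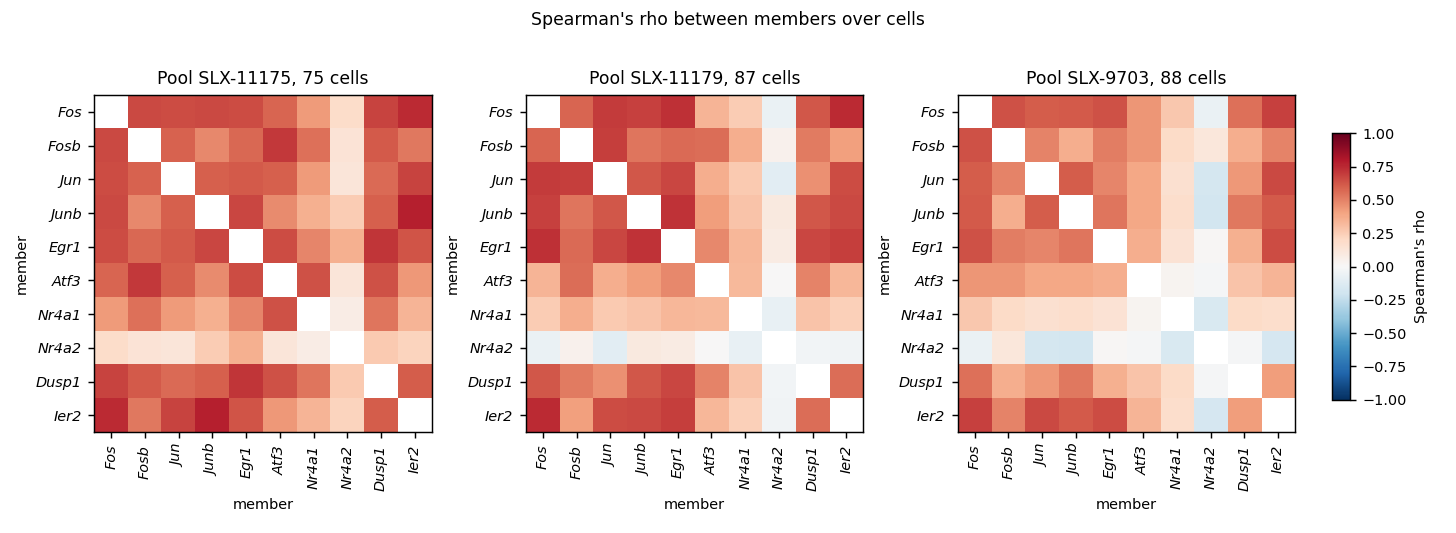
Spearman's rho over cells for each pair of members, in 1 panel per pool, on a colour scale from -1 (blue) to 1 (red), with the diagonal left blank. The row and column of Nr4a2 are pale in each pool (median rho 0.184, -0.0237 and -0.0643), while the block of Fos, Jun, Junb, Egr1 and Ier2 is red.

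The same pattern was present within classes of cells. In the deep pool the median correlation of the members other than Nr4a2 that were read in at least 50% of the cells was 0.627 in Gcg-high, 0.441 in Gip-high, 0.547 in Pzp-positive cells and 0.389 in cells under all limits, over 19, 10, 28 and 30 cells. Nr4a2 had median correlations with them of 0.125, 0.145, -0.232 and -0.0642. In the Gcg-high cells of the shallow pools the other members had medians of 0.744 and 0.543, against 0.139 and -0.243 for Nr4a2.

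Measures of quality were also set against the members. The mean log2(CPM + 1) of the 10 members had rho of 0.128, 0.290 and 0.0573 with depth, -0.0608, 0.0146 and 0.0352 with the mitochondrial share, and -0.339, -0.222 and -0.108 with the share of spike-in reads. With the number of genes detected it was 0.516, 0.460 and 0.216, and in pool SLX-11179 this was as high as the median pair of members (0.458). The part of the number of genes detected in the relations among members was not tested.

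Genes outside the set followed it closely. By the rule of the highest lowest-over-pools correlation with the mean of the members, among 1194 genes read in at least 50% of the cells of each pool, the leading genes included Btg2, Zfp36, H3f3b, Atf4, Tsc22d1, Actb, Clk1, Id3 and Ddx5. Btg2, an antiproliferative early response gene, had rho of 0.796, 0.736 and 0.668, and Zfp36, which encodes an RNA-binding protein that destabilises transcripts, had 0.696, 0.790 and 0.635. Over the 1194 genes the median of the lowest correlation was 0.103.

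Of 36 other immediate early genes, 19 were read in at least 50% of the cells of the deep pool, and 18 of these had a correlation above 0 with the mean of the members in every pool. Besides Btg2 and Zfp36, Rhob (0.531, 0.424 and 0.527) and Klf2 (0.456, 0.434 and 0.417) came next, and Cyr61 was the exception at -0.110 in pool SLX-11175. Among heat shock genes, which respond to misfolded proteins, 10 of 10 were above 0 in every pool. Their median in the deep pool was 0.190, where that of the other immediate early genes was 0.301, and the difference was not tested. Dnajb1, a co-chaperone, had 0.345, 0.361 and 0.385. Among feedback inhibitors of the pathway, 5 of 6 were above 0 in every pool, led by the MAP kinase phosphatases Dusp6 (0.408, 0.375 and 0.424) and Dusp5 (0.397, 0.483 and 0.370). Upstream factors and kinases were above 0 in every pool in 18 of 26 cases, with a median of 0.162 in the deep pool. Over all 7960 genes that met the same limit on cells with a read, 63.5% were above 0 in every pool and the median in the deep pool was 0.106, so that the share of the upstream genes was near the background.

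Endocrine genes were among those that Nr4a2 followed most closely. The genes most like it, among 1199 compared, were Chgb (rho 0.682, 0.610 and 0.612), the amino acid transporter gene Slc6a19 (0.529, 0.626 and 0.530), the fatty acid receptor gene Ffar1 (0.524, 0.488 and 0.583), Cyp4b1 (0.578, 0.483 and 0.567) and Chga (0.643, 0.475 and 0.576). Gcg itself was ninth, at 0.610, 0.563 and 0.388. This list was drawn up after the values of Nr4a2 had been seen. Summed over the 13 endocrine markers, the correlation with Nr4a2 was 0.616, 0.640 and 0.626, against 0.481, 0.341 and 0.194 for the mean of the members. Summed enterocyte markers had 0.422, 0.361 and 0.255 with Nr4a2 and 0.287, 0.259 and 0.241 with the mean. Goblet markers had 0.496, 0.401 and 0.233 with the mean and 0.225, 0.103 and 0.198 with Nr4a2, and immune markers -0.222, -0.288 and -0.198 with the mean and -0.264, -0.128 and -0.276 with Nr4a2. The part of these markers in the relations among members was not tested. Most of the genes nearest to Nr4a2 stand on neither the endocrine nor the hormone list.

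The relation to hormone levels was opposite in sign between Nr4a2 and the mean of the members for Pzp in each pool. For Gcg and Pyy it was higher with Nr4a2 in each pool, and for Cck and Sct both were above 0. The mean includes Nr4a2 itself, and the differences were not tested. For all these relations the CPM were taken over genes other than 12 hormone genes. A hormone that fills a library then does not lower the other values. Nr4a2 had rho of 0.615, 0.592 and 0.429 with Gcg, where the mean of the members had 0.531, 0.126 and 0.0508. With Pzp the signs were opposite, at -0.180, -0.425 and -0.195 for Nr4a2 and 0.339, 0.259 and 0.186 for the mean. The classes were cut on Gcg itself, which narrows its range within a class and can lower a correlation. For this reason no conclusion is drawn from the values within classes. The correlation of Nr4a2 with Gcg was lower there than over the whole pool in 6 of 7 cases. In Gcg-high cells it was 0.365, -0.0402 and 0.226, in Pzp-positive cells 0.124 (pool SLX-11175) and 0.406 (SLX-9703), and in the deep pool -0.261 in Gip-high cells and 0.447 in cells under all limits.

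With Pyy (peptide YY) Nr4a2 had 0.621, 0.354 and 0.394, and the mean of the members 0.491, -0.0123 and -0.00916. With Cck (cholecystokinin) Nr4a2 had 0.506, 0.531 and 0.414 and the mean 0.495, 0.272 and 0.189. With Sct (secretin) the values were 0.470, 0.386 and 0.493 for Nr4a2 and 0.360, 0.499 and 0.248 for the mean, and with Ghrl (ghrelin) 0.361, 0.291 and 0.364 for Nr4a2 and 0.567, 0.262 and 0.187 for the mean. Both thus followed Cck, Sct and Ghrl in each pool. Nr4a2 ran against Tph1, the enzyme of serotonin synthesis (-0.107, -0.341 and -0.298), and the mean did not (0.181, 0.265 and 0.0711).

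Correlations of single members other than Nr4a2 with Gcg were all above 0 in pool SLX-11175, from 0.215 for Nr4a1 to 0.530 for Egr1. In the deep pool they ran from -0.234 for Jun to 0.0996 for Egr1. Those with Gip were small, between -0.228 and 0.202 over the 3 pools. Those with Pzp lay from -0.0415 (Nr4a1, pool SLX-9703) to 0.474 (Ier2, pool SLX-11179), with Ier2 (0.375, 0.474 and 0.314) and Junb (0.457, 0.312 and 0.264) among the 3 highest in each pool. The mean of the members was thus related to Gcg mainly in pool SLX-11175, and to Pzp at a low level in all 3 pools, where its values with Cck, Sct and Ghrl were as high or higher.

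**Figure D3:**
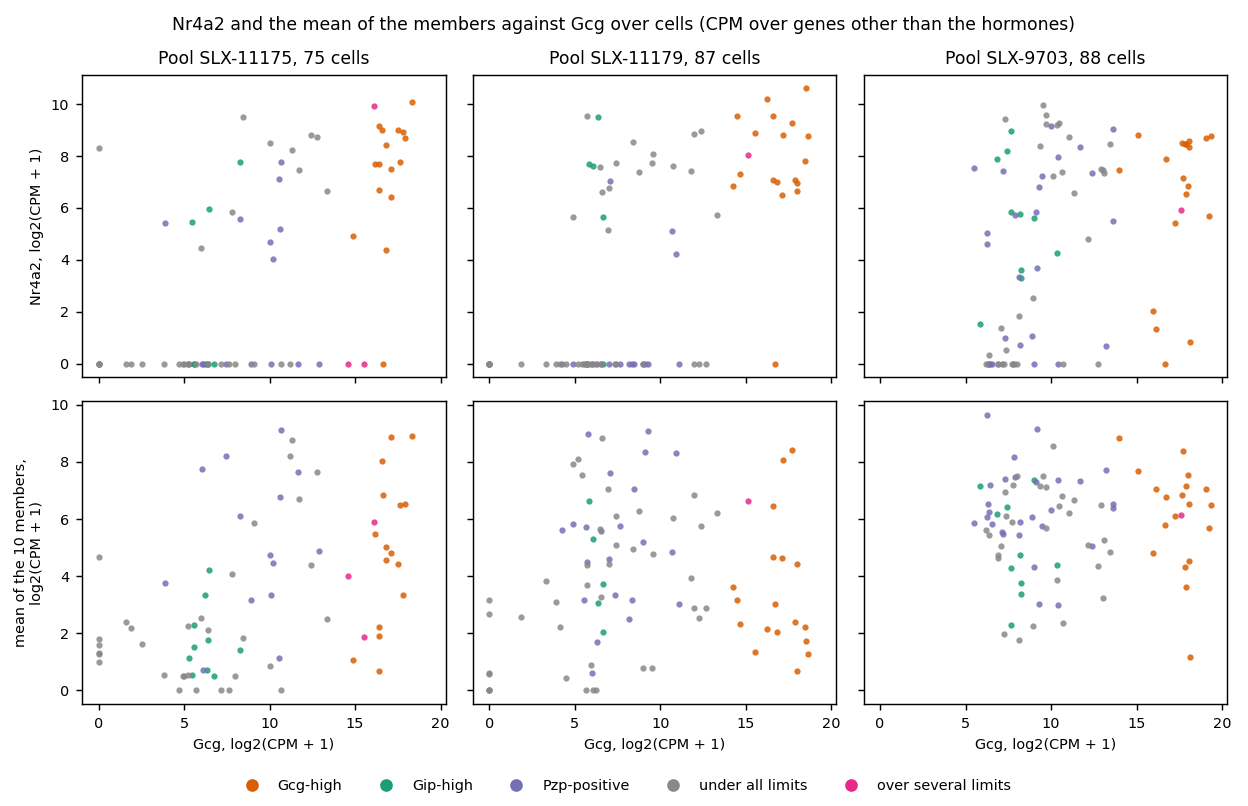
Each point is 1 cell, coloured by class; the horizontal axis is Gcg and the vertical axis Nr4a2 (upper panels) or the mean of the 10 members (lower panels), all as log2(CPM + 1) over genes other than the hormones, with 1 column per pool. Nr4a2 is high in most Gcg-high cells of each pool (rho 0.615, 0.592 and 0.429), whereas the mean of the members runs from 0.668 to 8.91, from 0.696 to 8.41 and from 1.16 to 8.84 in the Gcg-high cells of the 3 pools.

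The classes were then compared on sums of cells per pool, which makes 3 values per class. Whether Gcg-high and Pzp-positive cells differed was the first question. Of the 10 members none passed edgeR's quasi-likelihood test at an adjusted p of 0.05, where 0.325% of 11371 genes did (37 genes, 17 higher and 20 lower in Gcg-high cells). The unadjusted p was under 0.05 for Nr4a2 and Dusp1 among the members and for 635 of all genes. In all, 9 of 10 members had a negative log2 fold change, with a median of -0.70 over the 10, against -0.004 over all genes. This rested largely on pool SLX-11179: without it the median of the members was -0.12, Egr1 and Ier2 were at 0.14 and 0.10, Fosb was at -0.02 and Jun at -0.09. Nr4a1 moved the other way without that pool, to -1.82, and Atf3 was at -0.52. Without pool SLX-11175 the median was -1.28.

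Nr4a2 was the 1 member with a positive value. In Gcg-high cells its normalised CPM was 197, 383 and 95.2 in the 3 pools, and in Pzp-positive cells it was 24.8, 4.96 and 53. The Gcg-high sums were higher in each pool, and the groups did not overlap. The log2 fold change was 3.11 ± 0.75 (SE), with an adjusted p of 0.136 in edgeR, so that it did not pass. DESeq2 gave 3.11 with an adjusted p of 0.00294, and 4 of 17 alternative analyses called the difference, with adjusted p-values from 5.02e-05 to 0.802. Without pool SLX-11179 the log2 fold change was 2.19, without pool SLX-11175 it was 3.22 and without pool SLX-9703 it was 4.255.

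The single cells that make up these sums gave the same order. Nr4a2 was read in 50 of 53 Gcg-high cells (94.3%) and in 30 of 64 Pzp-positive cells (46.9%), at median depths of 93670 and 110677 reads. After thinning to 20000 reads the shares were 83% (exact 95% interval 70.2 to 91.9%) and 21.9% (12.5 to 34%), with 40% in Gip-high cells and 37.9% in cells under all limits. These intervals join the cells of all pools and leave out the spread between pools. By pool the thinned shares were 81.2%, 94.4% and 73.7% in Gcg-high and 21.4%, 4.55% and 35.7% in Pzp-positive cells. The single highest cell held between 11.7% and 30% of the Nr4a2 reads of a Gcg-high sum, but 81.8% of the 11 reads in the Pzp-positive sum of pool SLX-11179.

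The other 9 members had negative fitted values and did not pass the test, and the pools differed in direction: in pool SLX-11175 the Gcg-high sum was the higher one for 6 of the 9 (Fosb, Jun, Egr1, Atf3, Dusp1 and Ier2), and in pool SLX-9703 it was slightly higher for Junb and Egr1. Nr4a1 was the second whose groups did not overlap, at 25.2, 29.3 and 4.38 CPM in Gcg-high and 58.4, 37.5 and 42.4 CPM in Pzp-positive cells, with a log2 fold change of -1.04 ± 1.00. The single highest cell held 85.3%, 91.5% and 43.5% of the Nr4a1 reads of the Gcg-high sums. In the Pzp-positive sums it held 37.3%, 71.1% and 38.6%. Groups that did not overlap were found for 2 of 10 members and for 12.5% of all genes tested. Dusp1 had 74.8, 38.7 and 82.3 CPM in Gcg-high and 47.5, 320 and 174 CPM in Pzp-positive cells, with a log2 fold change of -1.22 ± 0.55 and an adjusted p of 0.854 in edgeR. The groups overlapped, and without pool SLX-11179 the value was -0.17.

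Fos showed how far single pools could differ. Its Gcg-high sums were 576, 127 and 861 CPM and its Pzp-positive sums 627, 1067 and 1072 CPM, a log2 fold change of -0.73 ± 0.65. Pool SLX-11179 alone had a wide gap. The values for Fosb, Jun, Junb, Egr1, Atf3 and Ier2 lay between -0.80 (Jun) and -0.51 (Egr1), each within 1.5 standard errors of 0. Goblet markers moved in the same direction: their summed level was 930 to 2009 CPM in Gcg-high and 8429 to 11130 CPM in Pzp-positive cells, with 6 of 7 markers read and Clca1 at 0 in both classes. The summed endocrine markers went the way of Nr4a2, at 22050 to 43950 CPM in Gcg-high and 9748 to 20660 CPM in Pzp-positive cells, without overlap. By gene, 10 of the 13 had a positive and 3 a negative log2 fold change, and 1 was called, Chgb at 3.32 ± 0.44. The part of both marker lists in the values of the members was not tested.

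**Figure D4:**
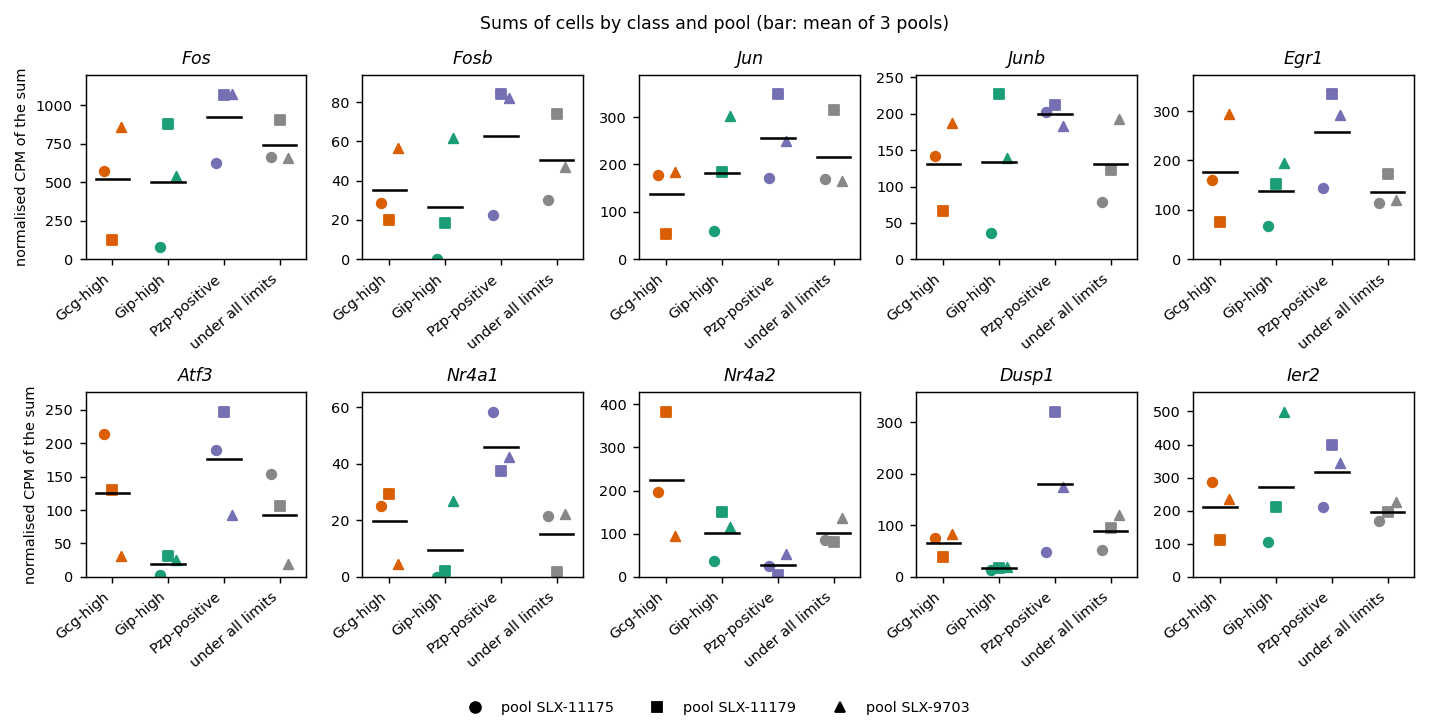
Normalised CPM of the summed cells for each member (panels), by class along the horizontal axis; symbols are the 3 pools and bars their mean, and each vertical axis starts at 0. Nr4a2 is highest in the Gcg-high sums of both shallow pools (197 and 383 CPM) but not in that of the deep pool (95.2 CPM, against 115 in Gip-high cells and 137 in cells under all limits), and Dusp1 lies at 13.3 to 19 CPM in the 3 Gip-high sums.

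Gip-high cells were next set against the mean of the Gcg-high and Pzp-positive classes. Dusp1 was lower in Gip-high cells and was the 1 member of 10 that passed, where 4.02% of all genes did (457 genes, 178 higher and 279 lower). Its normalised CPM was 13.3, 16.2 and 19 in the 3 Gip-high sums. All 6 sums of the other classes were higher, from 38.7 to 320 CPM. The log2 fold change was -2.75 ± 0.56, with an adjusted p of 0.0116 in edgeR, against a median of -0.22 over all genes.

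The reads behind the Dusp1 values were few. The 2 shallow Gip-high sums held 4 and 8 reads of Dusp1, each from a single cell, and the deep sum held 214 reads, of which 59.3% came from 1 cell. Dusp1 was read in 8 of 25 Gip-high cells (32%), 32 of 53 Gcg-high cells (60.4%) and 49 of 64 Pzp-positive cells (76.6%). After thinning these shares were 8%, 32.1% and 54.7%, with exact 95% intervals of 0.984 to 26%, 19.9 to 46.3% and 41.7 to 67.2%. These intervals join the cells of all pools and leave out the spread between pools. Without pool SLX-11179 or without pool SLX-9703 the adjusted p was 0.0748 and 0.105, and with at least 50000 reads per cell it was 0.0828, so that the call was lost at nearly the same fold change (-2.58, -2.82 and -2.96).

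Atf3 came closest after Dusp1. It measured 3.33, 30.4 and 25.2 CPM in the Gip-high sums, from 1, 15 and 284 reads, and 31.2 to 247 CPM in the 6 others. The groups did not overlap, but their nearest values were 30.4 and 31.2 CPM. The single highest cell held 100%, 100% and 79.6% of the Atf3 reads in the Gip-high sums. It held 88% in the Gcg-high sum of pool SLX-11179. The log2 fold change was -2.20 ± 0.62 with an adjusted p of 0.0581 in edgeR, and DESeq2 gave 0.00416. Groups that did not overlap were found for these 2 of 10 members and for 9.15% of all genes.

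For the remaining 8 members no difference of Gip-high cells was detectable. Fos (83.2, 879 and 539 CPM in Gip-high cells, log2 fold change -0.64 ± 0.60), Jun (-0.15 ± 0.48) and Ier2 (-0.07 ± 0.42) lay within their error of the other classes or little beyond it. Ier2 reached its highest sum of all, 499 CPM, in the Gip-high cells of the deep pool. Fosb (-0.97 ± 0.62), Egr1 (-0.67 ± 0.41) and Nr4a1 (-1.64 ± 1.05) were lower by more than their standard error, and Junb was at -0.38 ± 0.47. Nr4a2 had 36.6, 150 and 115 CPM in Gip-high cells, between those of the Gcg-high and Pzp-positive classes on average, with a log2 fold change of 0.29 ± 0.59. With limma on mean log2(CPM + 1) over cells, 7 members passed, but so did 3236 of all genes, and the median over all genes was -0.51.

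Genes around the members in the same pathway were called in Gip-high cells in both directions. Of 10 feedback inhibitors tested 3 were lower and 1 was higher, of 26 other immediate early genes 1 was lower and 1 higher, of 28 upstream factors and kinases 1 was lower, and of 14 heat shock genes 1 was higher. Of all genes 4.02% were called, and the counts of the lists other than the feedback inhibitors were near that share. Rgs2, a regulator of G protein signalling, had 0, 34.4 and 2.31 CPM in Gip-high sums and 70.4 to 1271 CPM in the others (log2 fold change -5.53 ± 0.86, adjusted p 0.00180 in edgeR). Dusp6, a phosphatase specific for extracellular signal-regulated kinases (ERK), had 0, 8.10 and 1.78 CPM against 30.6 to 81.6 (-4.52 ± 0.83, adjusted p 0.00612 in edgeR). Dusp5, another phosphatase of ERK, moved the other way, at 193, 166 and 126 CPM against 32.5 to 66.4 (1.71 ± 0.31, adjusted p 0.00590 in edgeR).

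Klf4, a zinc finger factor, had 2 reads in all Gip-high sums and 6.67 to 47 CPM in the sums of the other classes (adjusted p 0.00219 in edgeR). Spry1, an inhibitor of receptor tyrosine kinase signalling, had 1 read and 7.48 to 28.6 CPM (adjusted p 0.0383 in edgeR). Both were thus next to absent from Gip-high cells at this depth. Arc, an activity-regulated gene best known from neurons, had 0, 152 and 138 CPM in Gip-high sums against 2.97 to 23.7 CPM (2.96 ± 0.72, adjusted p 0.0325 in edgeR). Mapk3, which encodes the kinase ERK1, was lower at -1.74 ± 0.44 and Hspa4l, a heat shock protein gene, was higher at 1.93 ± 0.45. Of these 8 genes Rgs2 was called in 16 of 17 alternatives, Klf4 in 15, Dusp6 and Hspa4l in 14, Arc and Dusp5 in 12 and Mapk3 in 9, and Spry1 in 12 of 16. With limma the log2 fold changes fell to 0.33 for Arc, 0.44 for Dusp5 and 0.16 for Hspa4l, none of them called, and with cells over several limits kept Dusp6 was at -0.90 and neither it nor Klf4 or Arc was called. Without 1 pool all 8 lost the call at least once, Rgs2 at an adjusted p of 0.0521 in edgeR without pool SLX-11175.

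Other measures also differed in Gip-high cells. Hormone genes took 28.9%, 47.9% and 39% of their reads, against 13.1% to 32.9% in Gcg-high and Pzp-positive sums, and with hormone genes left out of the fit Dusp1 was at -2.74 with an adjusted p of 0.0146 in edgeR. Their goblet markers summed to 23.8 to 210 CPM, with Muc2, Clca1, Zg16 and Spink4 at 0. Enterocyte markers summed to 744 to 1230 CPM in Gip-high sums against 1917 to 3564 CPM in Gcg-high and Pzp-positive sums, without overlap. Endocrine markers summed to 3090 to 10500 CPM against 9748 to 43950 CPM. Single genes of both lists were split. Of 10 enterocyte markers 5 had a positive and 5 a negative log2 fold change, with 1 called higher (Rbp2, 2.61) and 2 called lower. Of 13 endocrine markers 6 were positive and 7 negative, with 1 called higher (Isl1, 1.79) and 3 called lower. Their part in the differences was not tested.

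Finally the 3 hormone classes together were compared with the cells under all limits. None of the members passed, where 1.35% of all genes did (153 genes, of which 147 were higher in cells under all limits), 1081 genes had an unadjusted p under 0.05 and DESeq2 called no member. In this comparison 5 members had a positive and 5 a negative log2 fold change, with a median of -0.07 against -0.16 over all genes. The values ran from -0.60 ± 0.41 (Dusp1) to 0.81 ± 0.87 (Nr4a1). Fos had 666, 908 and 657 CPM in cells under all limits, within the range of 83.2 to 1072 CPM of the hormone classes. The groups overlapped for all 10 members, where 1.77% of all genes had groups that did not.

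Hspa1a, which encodes an inducible heat shock protein, was the 1 gene of the 4 pathway lists that passed here. It had 17.5, 18.9 and 47.6 CPM in cells under all limits and 0 to 28.4 CPM in the hormone classes (log2 fold change -3.17 ± 0.72, adjusted p 0.0393 in edgeR). The groups overlapped through the Gip-high sum of pool SLX-11179, and the call held in 8 of 16 alternatives. Cells under all limits were mixed. Immune markers summed to 857 to 351600 CPM in them and to 33.3 to 319 CPM in the hormone classes, and 12 of 13 immune markers had a read. Of the 103 cells, 26 had immune markers at 1000 CPM or more. Without such cells of any class, an alternative chosen after the data had been seen, 46 genes were called, Hspa1a was at -2.30 with an adjusted p of 0.565 in edgeR, and no member was called. Enterocyte markers summed to 1402 to 8216 CPM in the cells under all limits against 744 to 3564 CPM, with all 10 markers read in each class.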

How the data were processed

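The authors aligned Smart-seq2 reads to mm10 with GSNAP (version 2015-09-29) and counted them per gene with HTSeq (version 0.5.3p3), according to the submitters' processing notes, and deposited 1 table of raw counts with 46078 mouse genes, 92 spike-ins and 5 rows that name no gene. Those rows hold 77.6% of all counts and were left out throughout. A further 4 columns matched no sample and were not used. Symbols were matched by Ensembl identifier (45143 matched).

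CPM are relative to all reads on mouse genes. Cells with at least 20000 such reads and at most 20% mitochondrial reads were kept. The authors' own filters for the deep pool were stricter. For each class in each pool with 3 cells or more the counts were added up, normalised by TMM and compared in 1 fit over 12 sums with edgeR 4.0.16 (quasi-likelihood, filterByExpr, Benjamini-Hochberg, 0.05) and a term for the pool (a block). Sums of 1 pool share its label, and after the class means were taken off sums of the same pool correlated at 0.026 to 0.401 and sums of different pools and classes at -0.25 to 0.085. The normalised CPM of sums use TMM library sizes, and errors of fold changes are standard errors from the F statistic. Doublets were not called; the study could not fully exclude small clumps of cells, and 5 cells over several limits entered no class. Alternatives used DESeq2 1.42.0, limma 3.58.1 on log2(CPM + 1), other filters, limits and denominators, thinning, and leaving out each pool. The members, lists and tests were chosen with earlier results of these data known. Named were all members, called genes of the 4 pathway lists and the 10 genes most like the mean of the members, of which 1 is not reported here.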

Additional observations from a re-analysis of the deposited data

Results flagged for a closer look

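Cells left out of the main comparisons also held transcripts of the members. Of the 38 cells with low depth or a high mitochondrial share, 71.1% had a read of Fos (exact 95% interval 54.1 to 84.6%), 63.2% of Jun, 60.5% of Ier2, 52.6% of Egr1, 47.4% of Junb, 44.7% of Atf3 and 44.7% of Nr4a2. Fosb was read in 34.2% and Dusp1 in 28.9% of them. These 9 genes are listed because they were read in cells outside the main comparisons, some of which entered the alternative with at least 10000 reads. Nr4a1 was read in 5.26% (2 cells). No undissociated sample was analysed here to set beside these values.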

How the results depend on the processing

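The direction of the Nr4a2 and Dusp1 results held in all alternatives run: from 2.19 to 4.32 over 17 for Nr4a2 in Gcg-high against Pzp-positive cells, and from -3.44 to -2.34 over 17 for Dusp1 in Gip-high cells, where 14 kept the call. Nr4a2 passed with DESeq2 (3.11), no filter on low counts (3.13), cells thinned to 20000 reads (3.36) and limma (4.32), each time as the 1 member called. Dusp1 lost its call with at least 50000 reads per cell (-2.96), and without 1 pool it lay between -2.82 and -2.58. In that comparison DESeq2 and no filter called 2 members, limma 7, at least 50000 reads 0, and leaving out a pool 0 to 1. Without pool SLX-9703 the 1 member called was Atf3 (-3.44), not Dusp1. The 2 shallow Gip-high sums held 4 and 8 reads of Dusp1, and the cause of the lost calls was not tested.

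The number of genes called depended on the setting, and the cause was not tested. For Gcg-high against Pzp-positive cells (37 genes) it was 174 with DESeq2, 119 with no filter, 24 without hormone genes, 75 after thinning, 157 with limma and 4 to 15 without 1 pool. For Gip-high cells (457 genes) it was 1311, 855, 250 with at least 50000 reads, 291 with cells over several limits kept, 3236 with limma and 108 to 167 without 1 pool. For the hormone classes against the cells under all limits (153 genes) it was 334, 1123, 256 with at least 50000 reads, 89 with at most 10% mitochondrial reads, 77 after thinning, 46 without cells with immune markers and 114 to 239 without 1 pool. With no replicate block for the pool, 15 genes were called for Gcg-high against Pzp-positive cells, and Dusp1 stayed called in Gip-high cells at -2.70. The block changed the call of no member.

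Members that did not pass changed sign in some settings. In Gcg-high against Pzp-positive cells, Egr1 ran from -0.94 to 0.14 and Ier2 from -1.29 to 0.10 without 1 pool, positive without pool SLX-11179. In Gip-high cells Ier2 turned to 0.025 with RLE size factors, 0.021 with DESeq2 and 0.086 with no block, and Fos, Jun, Junb and Ier2 to 0.016, 0.32, 0.093 and 0.36 with at least 50000 reads and, without pool SLX-11175, to 0.044, 0.39, 0.25 and 0.44 (lowest value without 1 pool -1.56, -0.65, -1.21 and -0.69). Thinning gave Fosb 0.13, Jun 0.29 and Ier2 0.35, and Nr4a2 turned to -0.42 with limma and -0.11 without pool SLX-11179 (highest 0.67). Against the cells under all limits, limma gave Fos 0.15, Fosb 0.056, Jun 1.06, Nr4a2 1.22 and Dusp1 0.45, with the median of all genes at 0.29. Atf3 was at -0.16 with at most 10% mitochondrial reads, -0.38 without cells with immune markers, -0.26 with no block and -0.53 without pool SLX-9703 (highest 0.57), Egr1 at -0.021 without cells with immune markers, Jun at 0.14 without pool SLX-11179 (lowest -0.56) and Nr4a2 at 0.004 with at least 50000 reads. Of 44 recomputed descriptions over cells 43 moved by less than the spread between pools. The mean over pools of the correlation between the members and Gip moved from -0.03 to 0.0648 with at least 50000 reads.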
